A study of Mus musculus with 94 samples.

Results

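Small nucleolar RNA (snoRNA) entries and the long noncoding genes that host such RNAs were followed in mouse embryonic stem cells after loss of RAD21 or WAPL. Rows were selected on their name and on a mean count of at least 10 over the libraries of their own table: symbols starting with Snora, Snord or Scarna and a number, numbered Snhg genes, and Gas5. The PRO-seq table held 6 such rows of 22529, all of them Snhg hosts. It held no snoRNA entry at any count, and the remaining hosts, Gas5 among them, had no row there either. PRO-seq values thus cover these 6 hosts only, and a missing row says nothing about transcription. The RNA table of the RAD21 lines held 59 (43 snoRNA entries and 16 hosts). The RNA table of WAPL loss on days 4 to 7 held 67 (51 entries and 16 hosts), and that of days 7 to 10 held 53 (37 entries and 16 hosts). Together these were 68 genes, 51 of them snoRNA entries and 17 of them hosts, and no Scarna row reached the count.

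RAD21 is a core part of cohesin, which folds DNA into loops, and WAPL takes cohesin off chromatin. The cells were Tsix-stop hybrids of CAST/Ei and 129/Sv/Jae in which the protein was fused to an FKBP degron, so that dTAG-13 at 500 nM led to its destruction, and DMSO was the vehicle. All groups, controls included, carried the degron and were differentiated as embryoid bodies from stem cells kept on irradiated fibroblast feeders. RAD21 clones C4 and G9 gave 1 library per clone and arm after 8 h of treatment, with PRO-seq, which maps RNA polymerases engaged in transcription, at day 7 and poly(A) RNA-seq at day 10. WAPL lines were treated for 3 days: on days 4 to 7 with clone H7 (replicates 1 and 2) and clone H2 (1 library per arm), and on days 7 to 10 with clone H7 alone (replicates 1 and 2). Each clone is a single derived line, so the data rest on 2 clones per protein at most, and 18 of the 94 samples of the series were used.

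Most vertebrate snoRNAs are cut out of the introns of other genes after splicing. Box C/D snoRNAs (Snord) guide ribose methylation of ribosomal RNA by the enzyme fibrillarin, box H/ACA snoRNAs (Snora) guide pseudouridylation by dyskerin, and the related scaRNAs act on spliceosomal RNAs in Cajal bodies. Many hosts are ribosomal protein or translation factor genes, whose start sites often carry a pyrimidine tract. The Snhg genes and Gas5 are hosts whose spliced RNA encodes no conserved protein and is commonly degraded by nonsense-mediated decay. Mature snoRNAs have no poly(A) tail, so reads on their entries in poly(A) libraries need not come from the mature molecule, and which molecule they came from was not tested.

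Of the 51 snoRNA entries, 34 lay inside a protein-coding gene, 21 of these a ribosomal protein gene, 11 lay inside a Snhg gene or Gas5, 5 inside another long noncoding gene, and 1 (Snord104) inside no gene of the RefSeq annotation used (GRCm38.p6). The entries had 41 different hosts, and several shared one: Rpl13a held Snord32a, Snord33 and Snord34, and Gnl3, a nucleolar GTPase, held Snord19 and Snord69. Entries inside the same host are therefore not independent measurements.

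The start sites of 7 hosts named in the results are shown as examples, to let their promoters be compared. Snhg1, the host of Snord22, was not called in any main comparison. Snhg4, Snhg11 and Snhg14, which were called lower in 1 of them each, are not shown. Each sequence runs 5′ to 3′ on the gene's strand from 60 bases before to 20 bases from the annotated start onward, from RefSeq (GRCm38.p6). Capitals mark the letters TATA starting 45 to 15 bases before the start, and any run of at least 5 C or T that touches the 10 bases on either side of it.
Gas5, chr1:161035106-161035185, plus strand: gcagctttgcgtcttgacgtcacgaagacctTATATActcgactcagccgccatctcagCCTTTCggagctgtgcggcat
Snhg1, chr19:8723427-8723506, plus strand: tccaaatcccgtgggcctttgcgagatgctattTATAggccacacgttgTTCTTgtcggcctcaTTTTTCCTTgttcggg
Snhg12, chr4:132308618-132308697, plus strand: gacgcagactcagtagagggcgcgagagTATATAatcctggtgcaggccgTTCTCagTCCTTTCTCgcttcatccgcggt
Snhg5, chr9:88522878-88522957, minus strand: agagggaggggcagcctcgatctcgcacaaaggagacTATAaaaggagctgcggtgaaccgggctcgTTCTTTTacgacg
Snhg17, chr2:158361490-158361569, minus strand: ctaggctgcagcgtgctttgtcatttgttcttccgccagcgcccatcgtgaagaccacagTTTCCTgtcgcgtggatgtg
Snhg3, chr4:132353667-132353746, minus strand: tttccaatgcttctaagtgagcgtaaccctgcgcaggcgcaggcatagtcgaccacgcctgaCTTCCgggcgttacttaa
Snhg15, chr11:6528741-6528820, minus strand: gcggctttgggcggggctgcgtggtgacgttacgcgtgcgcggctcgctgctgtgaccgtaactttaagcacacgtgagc

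The search for host windows skipped a chromosome that was kept among all 32851 windows. Snhg4 and Snhg6 had no window here, and a missing host need not lack an annotated start. Windows were taken for 15 of the 17 hosts, 17 windows in all since Gas5 and Snhg17 have 2 each. Of these windows 6 had TATA at that distance (Gas5, Snhg1, Snhg5, Snhg7, Snhg8 and Snhg12), against 7.22% of all 32851 annotated windows. TATA reads the same on both strands, and in Snhg3 it lay 23 bases into the annotated transcript, outside the range searched. A pyrimidine run was present in 11 of the 17 windows, against 45.9% of all windows on the gene's strand and 49.7% on the opposite strand. All 6 hosts with TATA also had the run, and Snhg11, Snhg14, Snhg15 and Snhg20 had neither. The further annotated start of Gas5 and of Snhg17, upstream of the one shown, held neither motif. These matches describe letters in a window and do not show that a factor binds there.

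Total counts were 14269544.5 to 34335988.5 per PRO-seq library and 8413212 to 35388461 per RNA library, and they limit the entries most. The snoRNA entries together took 0.00504% to 0.00967% of an RNA library. Their mean count had a median of 22.75 in the RAD21 table, 20.83 in WAPL days 4 to 7 and 18.75 in days 7 to 10, against 454.4, 341.8 and 297.6 for hosts. Rows near the count limit in the RAD21 table were Snora23 (mean count 10) and Snord45c (11) just inside, and Snora44 and Snord57 (9.25 each) just outside. Within days 4 to 7 Snord45c (10.5) was just inside and Snord37 (8.5) just outside, and within days 7 to 10 Snora3 and Snora44 (10.25 each) were just inside and Snora26 (9) just outside. Stem cell markers were detected in every library, and no marker row was at 0 throughout a table.

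After 8 h of RAD21 loss, engaged polymerase rose over 2 of the 6 hosts, Snhg3 and Snhg15, and fell over none. Snhg3, which hosts the abundant H/ACA RNAs of the U17 type, had 228 (C4) and 265 (G9) CPM (counts scaled to library size) with DMSO and 328 and 344 with dTAG-13. The arms did not overlap, and the log2 fold change was 0.45 (SE 0.07, adjusted p = 8.19e-06), a rise of 36.8%. Snhg15 had 171 and 160 CPM with DMSO and 192 and 204 with dTAG-13. Its arms also stood apart, with a log2 fold change of 0.25 (SE 0.07, adjusted p = 0.015). Over all 16496 tested rows 5.9% were called higher and 4.66% lower, and 14.5% had dTAG-13 values wholly above and 15.9% wholly below DMSO. In these bulk samples a change in the share of cells that express a gene and a change per cell cannot be told apart.

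The other 4 hosts were within the spread of the clones. Snhg17, whose RNA is followed further in the WAPL lines, had 263 and 236 CPM with DMSO and 276 and 238 with dTAG-13, a log2 fold change of 0.04 (adjusted p = 0.744). Snhg14, the long transcript of the imprinted Prader-Willi region that carries large snoRNA arrays, had 116 and 121 against 118 and 124 CPM. Snhg5 had 126 and 129 against 135 and 123, and Snhg11 had 21.6 and 13.8 against 19.5 and 14.3. In each of these 4 genes the arms overlapped, and the fold changes lay between -0.06 and 0.04. The PRO-seq median over the 6 hosts was 0.04, beside -0.0029 over all tested rows.

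Short structured RNAs outside the family moved in the same PRO-seq libraries: 5 of 6 tested rows were higher, with a median log2 fold change of 1.95. Their summed level was 126 to 189 CPM with DMSO and 605 to 608 CPM with dTAG-13. Rmrp, the RNA of the RNase MRP particle, went from 65.8 ± 29.2 to 365 ± 38.9 CPM (SD, n = 2; adjusted p = 3.71e-18), and Rpph1, the RNA of RNase P, from 24.5 ± 2.23 to 89.2 ± 9.03 (adjusted p = 3.35e-14). Their part in the host values was not tested. The stem cell markers fell in 6 of 6 in these libraries, from a sum of 288 to 480 CPM to 177 to 352 CPM, with DESeq2 calling 3 of the 6. Of 10 germ layer markers 4 fell (196 to 415 against 165 to 260 CPM summed), T and Foxa2 among them, and 1 of 5 tested fibroblast markers, Acta2, rose (27 to 36.2 against 41.1 to 48.9 CPM summed). Whether these shifts bear on the hosts was not tested. DESeq2 called Snhg3 but not Snhg15 (adjusted p = 0.187). Both calls rested on the clone term: without it no member and no other row passed. Leaving out a library also removed the clone term and left 1 library in an arm, so it could not show whether the calls hold.

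**Figure D1:**
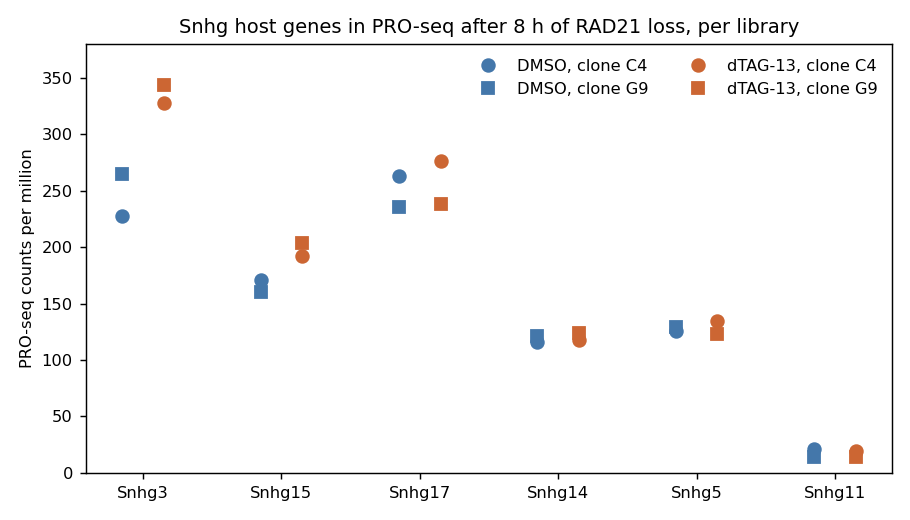
PRO-seq level of the 6 Snhg hosts in each of the 4 libraries, in CPM on a linear axis, with circles for clone C4 and squares for clone G9, DMSO in blue and dTAG-13 in orange. Both dTAG-13 libraries lie above both DMSO libraries for Snhg3 (328 and 344 against 228 and 265) and Snhg15, and the arms overlap for the other 4.

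In poly(A) RNA at day 10 after 8 h of RAD21 loss, the hosts were on the low side and none was called higher. Among 16 tested hosts 5 were called lower (Snhg14, Snhg12, Gas5, Snhg11 and Snhg5), beside 8.89% of all 14470 tested rows called lower and 9.83% higher. The hosts' median log2 fold change was -0.17, with 15 of 16 below 0, beside a median of 0.01 over all rows. In 7 of the 16 both dTAG-13 libraries lay below both DMSO libraries, against 15.3% of all rows.

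Gas5, which encodes a string of box C/D snoRNAs in its introns, had 118 (C4) and 114 (G9) CPM with DMSO and 90.2 and 101 with dTAG-13. The arms did not overlap (log2 fold change -0.28, SE 0.06, adjusted p = 1.39e-05). Snhg12 had 23.2 and 23.8 CPM with DMSO and 16.4 and 20 with dTAG-13, again apart (log2 fold change -0.38, SE 0.09, adjusted p = 0.000549). Snhg14 had 55.7 and 38.4 CPM with DMSO against 33.5 and 34.2. Its C4 control stood well above the other 3 libraries, and the fitted change was -0.47 (SE 0.07, adjusted p = 2.29e-10). It was -0.18 without that control, in a fit that also lost the clone term.

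Snhg5 and Snhg11 were called lower with arms that overlapped: the clones differed in level, and the treated library was the lower one within each clone. Snhg5 went from 70.4 to 60.9 CPM in C4 and from 77.5 to 70.9 in G9 (log2 fold change -0.17, adjusted p = 0.0261). Snhg11 went from 40.2 to 32.1 and from 30 to 27.4 (log2 fold change -0.24, adjusted p = 0.0128). Without the C4 control its change was -0.01. That fit also lost the clone term, so it set the treated libraries of both clones against the G9 control. Snhg3, higher in PRO-seq at day 7, had 20.1 and 18.2 CPM with DMSO and 15.2 and 17.2 with dTAG-13 in RNA at day 10 (log2 fold change -0.25, adjusted p = 0.0554), which did not pass. The PRO-seq and RNA libraries differed in day as well as in assay, and the difference between them was not tested. The other 10 hosts, Snhg4, Snhg17 and Snhg1 among them, had fold changes from -0.24 to 0.05 and none passed.

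The snoRNA entries lay low as well, but few passed. Of 42 tested entries, 4 were called lower and none higher, a share near the 8.89% of all rows. Their median log2 fold change was -0.32, 34 of 42 were below 0, and in 20 of 42 the arms stood apart with dTAG-13 lower, beside 15.3% of all rows. Members were chosen on raw counts, not scaled for depth. The control was deeper in G9 (33808921 against 13802076 counts) but not in C4 (23576374 against 26474853). Rows near the count limit can thus enter mainly through their DMSO counts. How far this lowered these values, and those of entries against hosts, was not tested. Summed over all entries the level was 72.5 (C4) and 71.1 (G9) CPM with DMSO and 55.2 and 60.2 CPM with dTAG-13, so both treated libraries were below both controls. By kind, the 25 Snord entries had a median of -0.30 and the 17 tested Snora entries one of -0.44. No Snora entry passed with edgeR or DESeq2, and 2 had an unadjusted p below 0.05. The 1 member not tested, Snora23, fell under the filter on low counts.

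The 4 entries called lower were box C/D RNAs. Snord22, in an intron of Snhg1, had 5.54 (C4) and 7.14 (G9) CPM with DMSO and 3.86 and 4.94 with dTAG-13 (log2 fold change -0.53, SE 0.18, adjusted p = 0.0204). Snord96a, in the ribosomal scaffold gene Rack1 (listed as Gnb2l1), had 5.37 and 5.26 CPM against 3.03 and 4.19 (-0.59, SE 0.19, adjusted p = 0.016). Snord16a, in Rpl4, had 4.41 and 4.51 CPM against 2.57 and 3.51 (-0.58, SE 0.21, adjusted p = 0.0345). The arms did not overlap in any of these. Snord35b rested on 23 and 16 counts with DMSO and 6 and 5 with dTAG-13 (-1.40, SE 0.51, adjusted p = 0.0353), and it did not pass with RLE scaling, with library totals or without the filter. Among other well-counted entries, Snora65 had 4.2 and 5.29 CPM against 3.98 and 3.59 and Snora7a 3.69 and 4.08 against 3.98 and 3.66. Neither passed, and the arms of Snora7a overlapped.

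All of these RNA calls depended on the model. DESeq2 called none of the 58 tested members lower, limma-voom called 5, and no member passed without the clone term. Leaving out a library also removed the clone term and left 1 library in an arm, so it could not show whether the calls hold. Stem cell markers also fell in 6 of 6 in these RNA libraries (summed 733 to 1090 CPM against 526 to 840), 5 of 10 markers of differentiating germ layers fell (796 to 886 against 661 to 724 CPM), and the summed fibroblast markers were 562 to 576 against 714 to 715 CPM, with 1 of 6 higher and 3 lower. Their part in the member values was not tested.

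After WAPL loss on days 4 to 7, 3 hosts fell, Snhg17, Gas5 and Snhg4, and no member rose. That is 3 of 16 tested hosts and none of 48 tested entries, beside 5.73% of all 14544 rows called lower and 9.46% higher. The hosts' median log2 fold change was -0.36 and that of the entries -0.32, beside -0.01 over all rows, with 15 of 16 and 42 of 48 below 0. All dTAG-13 libraries lay below all DMSO libraries in 7 of 16 hosts and 8 of 48 entries, against 14.6% of all rows. The entries' share is thus close to that of all rows. None of the entries passed with edgeR or DESeq2, and 6 had an unadjusted p below 0.05.

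Snhg17 had 69, 75.5 and 77.2 CPM with DMSO (H7 replicates 1 and 2, then H2) and 53.5, 52 and 43.8 with dTAG-13. Every pair fell and the arms stood apart (log2 fold change -0.57, SE 0.11, adjusted p = 0.014). Gas5 had 127, 128 and 123 CPM with DMSO and 105, 97.2 and 66.4 with dTAG-13 (-0.51, SE 0.13, adjusted p = 0.0308). Its controls were close together, and the H2 treated library was the lowest. Snhg4 had 15.6, 15.2 and 19.7 CPM with DMSO and 11.3, 11.6 and 10 with dTAG-13 (-0.59, SE 0.15, adjusted p = 0.0356), again without overlap. Clone H2 weighed on these values: without its treated library the changes were -0.46, -0.34 and -0.43 for Snhg17, Gas5 and Snhg4. None of these passed without either H2 library or without the control of H7 replicate 2, and Snhg17 alone passed without the control of H7 replicate 1.

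Further hosts had values apart between arms without passing. Snhg3 had 17.9, 22.1 and 31.3 CPM with DMSO and 15.4, 16.1 and 17.8 with dTAG-13 (log2 fold change -0.49, adjusted p = 0.0654). Snhg8 had 17.2, 17.3 and 19.4 against 15.8, 12.5 and 11.3 (-0.45, adjusted p = 0.095), and Snhg6 14.6, 13.2 and 17 against 11.4, 10.7 and 11 (-0.42, adjusted p = 0.0724). In all 3 genes every treated library was below every control, by a small margin in Snhg3. With the replicate number as a block, 8 hosts were called lower, adding Snhg3 (adjusted p = 0.0207), Snhg8 (0.0419), Snhg6 (0.0366), Snhg5 (0.014) and Snhg14 (0.00305), beside 12.1% of all rows lower in that fit. The block also called 1 entry, Snord52, inside 1110038B12Rik, with 2.31, 2.83 and 2.99 CPM against 1.47, 1.88 and 1 (blocked log2 fold change -0.82, adjusted p = 0.0382).

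The well-counted entries did not pass. Snord22 had 6.98, 8.06 and 6.86 CPM with DMSO and 8.51, 6.17 and 4.39 with dTAG-13, and Snora65 5.62, 5.99 and 6.48 against 4.25, 4.46 and 4.39. The arms of Snord22 overlapped and those of Snora65 did not (log2 fold change -0.45, adjusted p = 0.103). Summed entries reached 91.0, 97.6 and 99.5 CPM with DMSO and 82.9, 77.98 and 70.7 with dTAG-13, every control above every treated library. Snord57, Snord68 and Snord45c were not tested because of low counts.

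Fibroblast and feeder markers were higher in the treated libraries of these days (94.5 to 204 against 439 to 603 CPM summed, 4 of 6 called higher and 1 lower), and 1 of 6 stem cell markers was lower (1570 to 1830 against 1140 to 1570 CPM). Of 10 germ layer markers 3 were higher (T, Sox17 and Hand1) and 3 lower (Mesp1, Foxa2 and Nes), with summed levels of 446 to 526 against 388 to 541 CPM. Whether a different share of feeder or differentiated cells took part in the host values was not tested.

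After WAPL loss on days 7 to 10 no row of the table passed, 0 of 14110 (0%), and so no member did. Only 1 of 36 entries (Snord42b) and 1 of 16 hosts (Snhg4) had an unadjusted p below 0.05, both chosen by their p as no member passed. DESeq2 called 44 rows and no member. The medians were -0.39 for hosts and -0.36 for entries, beside -0.01 over all rows, with 14 of 16 and 28 of 36 below 0. The difference between the treatment windows was not tested. Arms stood apart with dTAG-13 lower in 4 of 16 hosts and 5 of 36 entries, close to the 16.8% of all rows. The main fit did not pair the libraries. With the replicate number as a block, 10 of 16 hosts and 4 of 36 entries were called lower and none higher. In that fit 5141 of 14110 rows were called in either direction, and the share called lower alone was not worked out. The absence of calls thus depended on the design, and that block rests on the number in the titles alone.

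The replicates of clone H7 differed in level in both arms in these days. Gas5 had 121 (replicate 1) and 89 (replicate 2) CPM with DMSO and 85.7 and 64.6 with dTAG-13, a log2 fold change of -0.49 (SE 0.24, adjusted p = 0.802). Snhg4 had 14.4 and 11.7 against 9.63 and 7.72 CPM (-0.60, SE 0.23, adjusted p = 0.759), and Snhg17 had 71.4 and 51.7 against 47.6 and 39.8 (-0.50, SE 0.23, adjusted p = 0.793). In all 3 genes both treated libraries were below both controls. Snord42b, in Rpl23a, had 2.23 and 1.62 CPM against 0.988 and 0.956 (-0.98, SE 0.35, adjusted p = 0.715). Snora24, in Snhg8, had 0.743 and 0.809 CPM against 0.165 and 0.441 (-1.18, SE 0.53, adjusted p = 0.793). Both are low-count rows whose arms did not overlap. Stem cell markers summed to 1250 to 1640 CPM with DMSO and 842 to 1260 with dTAG-13, and fibroblast markers to 377 to 532 and 668 to 714, with no marker called. Their part was not tested.

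**Figure D2:**
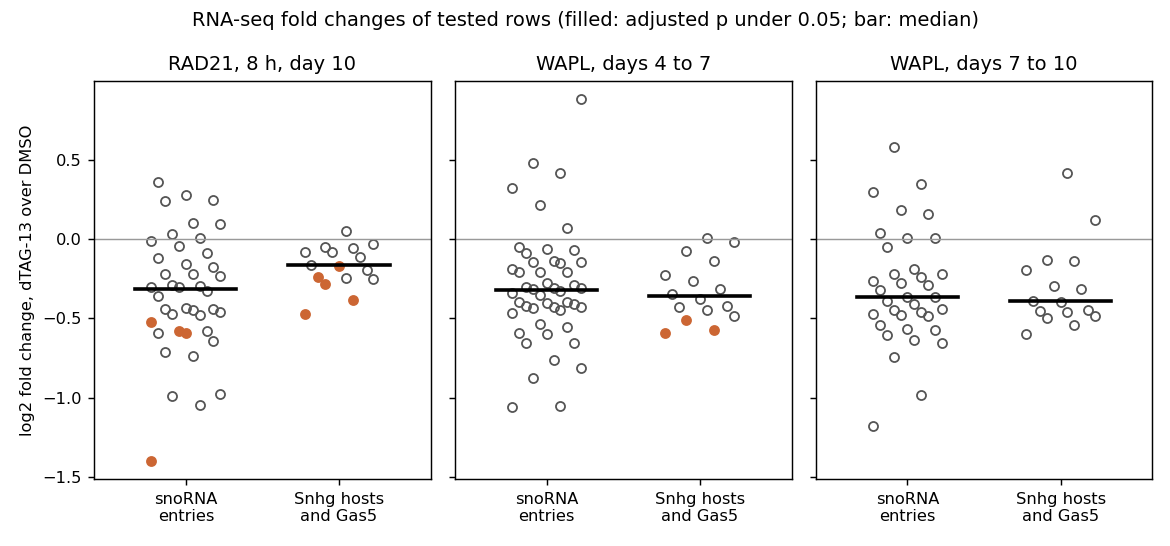
Log2 fold change (dTAG-13 over DMSO) of every tested snoRNA entry and host in the 3 RNA comparisons, 1 point per row, filled where the adjusted p was below 0.05, with a bar at the median. Medians lie below 0 in all 6 columns, from -0.17 (hosts after RAD21 loss) to -0.39 (hosts after WAPL loss on days 7 to 10).

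Of the 51 members present in all 3 RNA tables, 16 were hosts and 35 entries, 34 of which were tested in each. Fold changes were below 0 in all 3 comparisons for 14 of 16 hosts (87.5%) and 21 of 34 entries (61.8%), against 23.7% of the 13785 rows tested in all 3. Snhg10, a low-count host, was above 0 in all 3, and Snhg20 was above 0 on WAPL days 7 to 10 only. The 3 comparisons share no control libraries, though both WAPL sets contain clone H7. This pattern had been seen in earlier results of these data and is a description.

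**Figure D3:**
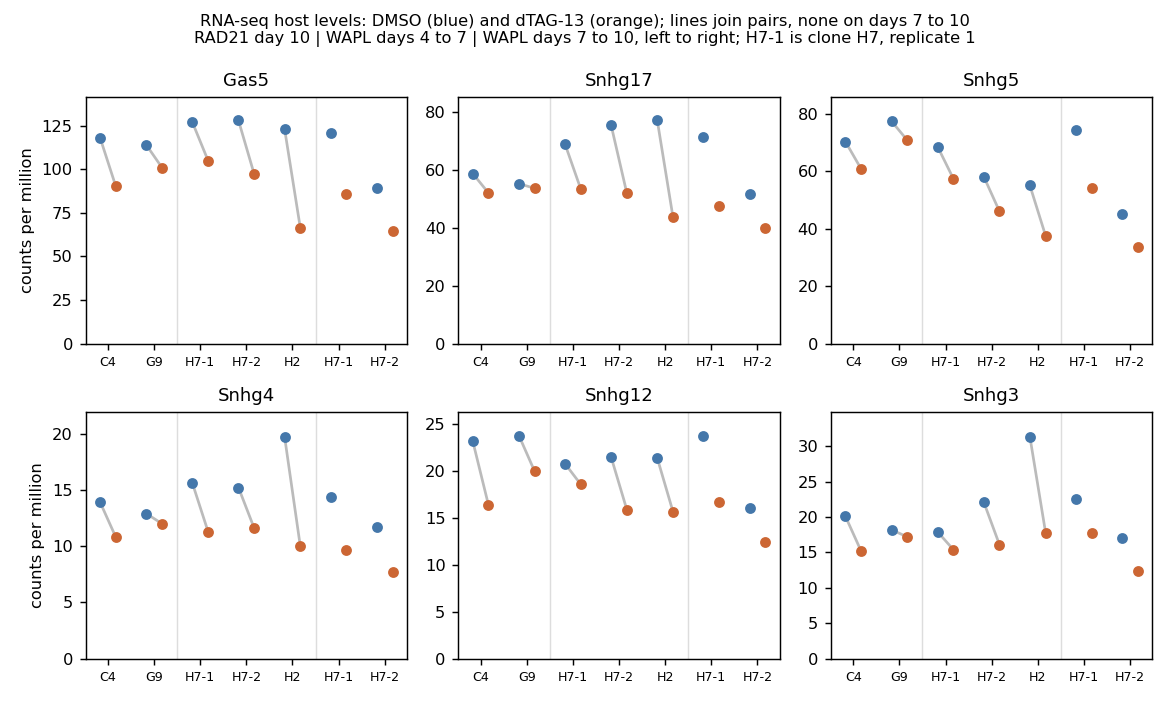
CPM of 6 hosts in each RNA library, DMSO in blue and dTAG-13 in orange, joined where libraries are paired, for the RAD21 clones, WAPL days 4 to 7 and WAPL days 7 to 10 from left to right. The treated library is the lower one of every joined pair in these 6 genes, with the steepest Gas5 step in clone H2 (123 to 66.4). On days 7 to 10 the arms stand apart in Gas5, Snhg17 and Snhg4 and overlap in Snhg5, Snhg12 and Snhg3.

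Entries were then set beside the gene that holds them. In the RAD21 RNA libraries the 41 tested entries with a tested host had a median log2 fold change of -0.33, and their 35 hosts one of -0.05. Of the 41, 30 were below their host, and 36 differed from it by no more than 2 combined standard errors. The median change in entry counts per host count was -0.29 in clone C4 and -0.28 in clone G9, with 29 and 27 of 41 below 0. The median entry thus lay below its host in both clones. Entries near the count limit can enter mainly through their DMSO counts, and how far this made the gap was not tested.

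By kind of host, the 19 entries inside ribosomal protein genes had a median of -0.30 while their 16 hosts had one of 0.00. All 8 entries inside Snhg genes had a fold change below that of their host, with a median of -0.44 against -0.08. Of these, 7 differed from the host by no more than 2 combined standard errors. Per host count Snora17, which shares Snhg7 with Snora43, alone did not fall (77.3 per 1000 with DMSO and 78.1 with dTAG-13). Snord22 had 96.4 counts per 1000 Snhg1 counts with DMSO and 66.3 with dTAG-13, while Snhg1 itself had 67.2 and 67.4 CPM against 60.4 and 70.2. Snord1a, in Snhg16 (listed as 1810032O08Rik), went from 73.7 to 58.4 per 1000 host counts, with the host also lower (-0.32, adjusted p = 0.00167). Ribosomal protein genes have many near-identical copies, and how reads were divided among them is not given in the sources used here, so their levels are uncertain.

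After WAPL loss the gap between entry and host was uneven between libraries, and its difference from the RAD21 set was not tested. On days 4 to 7 the medians were -0.32 for 47 entries and -0.20 for 38 hosts, with 27 of 47 entries below their host. The change per host count was -0.24 in H7 replicate 1, -0.02 in H7 replicate 2 and -0.02 in H2, so the 3 pairs were unlike. The control was the deeper library in H7 replicate 1 (35388461 against 12786374 counts) and the treated library in the other pairs. On days 7 to 10 the median change per host count was -0.18 in replicate 1 and 0.05 in replicate 2, paired by number (21 and 14 of 35 below 0). Over the summed libraries of each arm it was -0.02. There too the control was deeper in replicate 1 (18529788 against 12076585 counts) and the treated library in replicate 2. The part of depth in these values was not tested. Inside Snhg genes and Gas5 the entries did not lie lower on days 4 to 7: their median was -0.36 against -0.42 for the hosts. Snord47, in Gas5, had 5.93 counts per 1000 Gas5 counts with DMSO and 8.79 with dTAG-13, at low levels (0.473, 1.18 and 0.873 CPM against 0.309, 0.976 and 0.925), and its own change was -0.05 (adjusted p = 0.96).

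**Figure D4:**
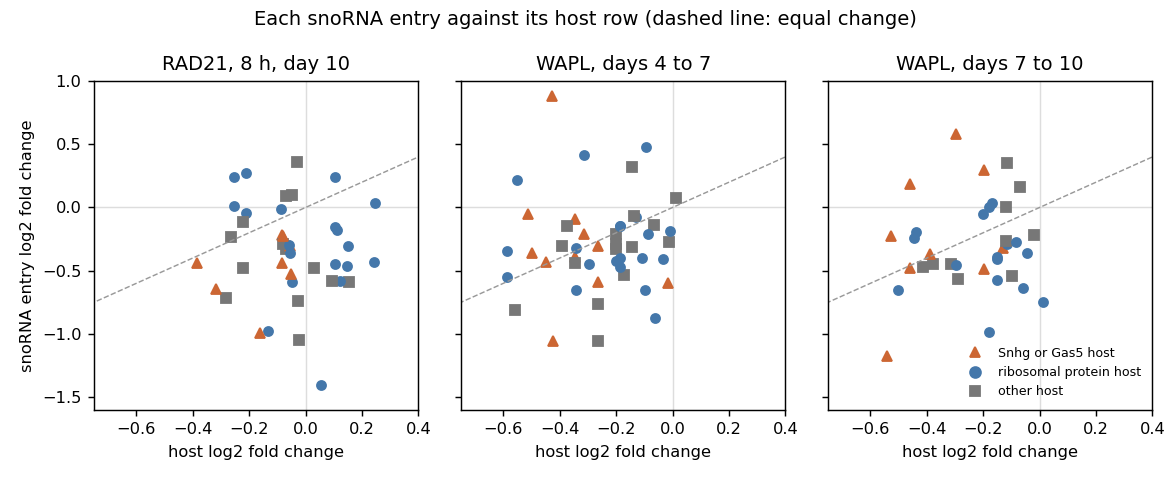
Log2 fold change of each snoRNA entry (vertical axis) against that of its host row (horizontal axis) in the 3 RNA comparisons, with triangles for Snhg or Gas5 hosts, circles for ribosomal protein hosts and squares for other hosts. After RAD21 loss 30 of 41 points lie below the dashed line of equal change, and on days 4 to 7 of WAPL loss 27 of 47. How far the choice of entries by raw counts lowered them was not tested.

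Snhg14 and the box C/D entry inside it, Snord64, varied more between replicates than between arms in the WAPL libraries. The locus is imprinted and normally transcribed from the paternal copy. In WAPL days 4 to 7 Snhg14 had 60.2, 163 and 173 CPM with DMSO and 42.1, 127 and 122 with dTAG-13. H7 replicate 1 was low in both arms, so the arms overlapped (log2 fold change -0.43, adjusted p = 0.539), yet the treated library was the lower one of each pair. Snord64 had 6, 21 and 10 counts with DMSO and 0, 41 and 34 with dTAG-13, or 0.167, 0.99 and 1.25 CPM against 0, 1.43 and 2.62 (log2 fold change 0.88, adjusted p = 0.497). It was thus also lowest in H7 replicate 1. The limit that 0 counts allow there is 0.232 CPM (3 counts, counting error only).

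The same order of replicates was seen on days 7 to 10. Snhg14 had 67 and 122 CPM with DMSO and 49.4 and 104 with dTAG-13, and Snord64 had 1 and 16 counts against 1 and 28. Replicate 1 was below replicate 2 in both arms for both rows. Snord64 per 1000 Snhg14 counts was 5.28 with DMSO and 13 with dTAG-13 on days 4 to 7, and 4.64 and 8.48 on days 7 to 10. Neither change of Snord64 passed, and with the replicate block it was 0.56 (adjusted p = 0.33) on days 4 to 7.

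**Figure D5:**
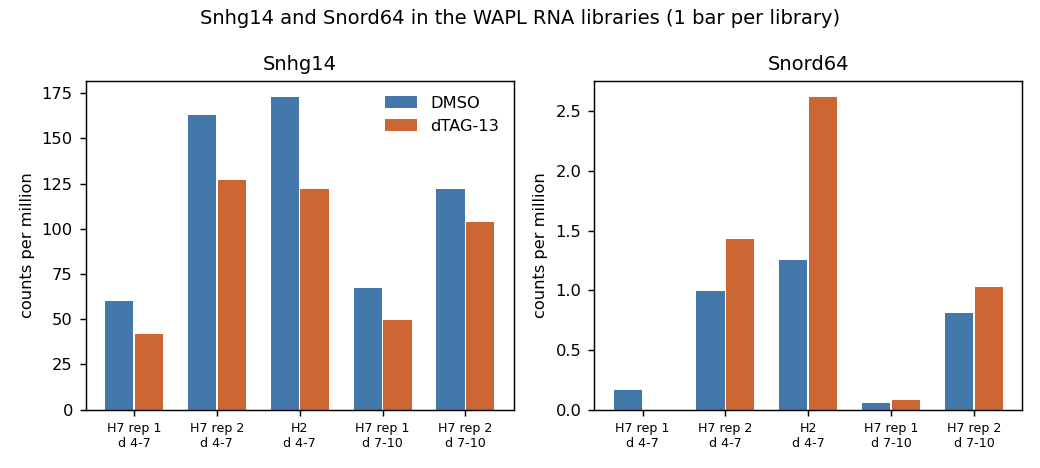
CPM of Snhg14 (left) and Snord64 (right) in each WAPL RNA library, with DMSO in blue and dTAG-13 in orange, bars from 0. H7 replicate 1 is low in both arms and in both windows, at 42.1 to 67 CPM for Snhg14 against 104 to 173 in the other libraries.

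Genes with a pattern most like that of Gas5 over the 14 RNA libraries, each table centred on its own mean, were Tipin (Pearson r = 0.981), Xrcc6 (0.972), BC055324 (0.971), Yars2 (0.969) and Tada2a (0.968), among 6885 rows with a mean log2 CPM of at least 5. Tipin acts at replication forks, Xrcc6 is the Ku70 subunit of DNA end joining and Yars2 is a mitochondrial tyrosyl-tRNA synthetase. Among hosts, Snhg17 (0.932), Snhg1 (0.911) and Snhg5 (0.908) were most like Gas5, while Snhg11 (0.047) and Snhg14 (-0.064) were not. These values share libraries and treatment and describe likeness only.

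The proteins that work with snoRNAs were on the low side after WAPL loss and near 0 after RAD21 loss in RNA. On days 4 to 7 of WAPL loss 2 of 13 genes listed for box C/D and scaRNA particles fell. They were Nolc1, a nucleolar chaperone of snoRNPs (-0.41, adjusted p = 0.0451), and Rpap3, an assembly factor (-0.49, adjusted p = 0.0193). Of 10 genes listed for box H/ACA and scaRNA particles 1 fell, Coil, the coilin of Cajal bodies (-0.47, adjusted p = 0.0241). Dkc1, Gar1, Nhp2 and Nop10 of that list did not pass with edgeR (adjusted p = 0.16, 0.0605, 0.762 and 0.346). The medians of these lists were -0.28 and -0.23, beside -0.01 over all rows. Of 40 genes of RNA polymerase I and ribosomal RNA processing 7 fell and none rose, with a median of -0.29, beside 5.73% of all rows called lower, among them Rrs1 (126 ± 3.00 to 83.5 ± 7.45 CPM, SD, n = 3, log2 fold change -0.60, adjusted p = 0.00711) and Polr1b, the second largest polymerase I subunit (-0.52, adjusted p = 0.0133). DESeq2 called 4 box C/D, 2 box H/ACA and 12 polymerase I and processing genes lower. None of 14 nonsense-mediated decay factors passed (median -0.16), with 2 at an unadjusted p below 0.05 and none by DESeq2.

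On days 7 to 10 none of these lists had a call, with medians of -0.20, -0.24, -0.21 and -0.13 for box C/D, box H/ACA, polymerase I and decay genes, and DESeq2 called none either; 0, 1, 2 and 0 genes had an unadjusted p below 0.05. In RAD21 RNA none of 13 box C/D, 10 box H/ACA and 14 decay genes passed (0, 1 and 3 at an unadjusted p below 0.05, none by DESeq2), and of 40 polymerase I and processing genes 1 rose (Ubtf, 0.19) and 1 fell (Polr1b, -0.21), neither of them called by DESeq2. The 4 medians lay between -0.02 and 0.07, and over all rows of that set 8.89% were called lower and 9.83% higher. In PRO-seq 6 of 35 polymerase I and processing genes fell and 1 rose, with a median of -0.12, and 1 of 11 box C/D genes fell (Rpap3, -0.39, adjusted p = 0.0141). DESeq2 called none of these genes, and over all PRO-seq rows the main fit called 4.66% lower and 5.9% higher. No box H/ACA or decay gene passed there, with 1 of each at an unadjusted p below 0.05 and none by DESeq2.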

How the data were processed

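Samples were assigned from their titles and descriptions. The authors deposited raw counts per gene in the RNA tables. In PRO-seq the deposited values are expected counts, given to the nearest 0.5, and were made whole by rounding. The submitters' processing notes name TopHat2, Novoalign, Bowtie2, HOMER, DESeq, DESeq2, cutadapt, bedtools, deepTools and Juicer and the builds mm9, hg19 and dm6; their roles, their versions, the counting rule and its use of strand are not stated in them or in the labels. Every table had its own fit in edgeR 4.0.16 (R 4.3.3): TMM scaling, the filterByExpr filter at 10 counts, the quasi-likelihood test, and Benjamini-Hochberg adjustment over all rows that were tested, called at 0.05. The clone was a term except on WAPL days 7 to 10. Residual degrees of freedom were 1 (RAD21 sets), 3 and 2. CPM are counts per total scaled by the TMM factor. Nothing says that replicates came from separate cultures, so p-values measure the spread between these libraries, which may be technical.

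On WAPL days 4 to 7 deviations from the group means correlated with r = 0.552 and 0.573 between the H7 libraries that share a number in their titles, and with 0.669 between the H2 libraries, whose titles carry no number and which pair by clone. These 3 pairs were taken as the blocks. The group means ran over both clones, so these correlations also carry the difference between H7 and H2. H7 libraries of unlike number were not correlated, so the values cannot show that the number pairs them. Same-clone libraries correlated with r = 0.762 (PRO-seq) and 0.736 (RNA) in the RAD21 sets, where the clone term pairs them.

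The tables give gene labels without lengths or coordinates, so the planned levels per length were not computed and levels are not compared between genes. The host of an entry is the shortest longer gene that contains it in the RefSeq table (GRCm38.p6), found without strand. Changes per host count in single pairs used 0.5 counts added to both. Members, lists and tests were chosen with earlier results of these data known. The naming rule took all hosts, the 8 entries of highest CPM, up to 8 falls and 8 rises past the threshold, entries inside Snhg genes or Gas5, Rmrp and Rpph1 and, where no member passed, the 4 smallest p; a selection of these is given. Snord52 and the genes named from the protein lists were chosen after their values were seen. Fits were also run on simulated counts with a fixed dispersion and no clone or replicate effect. That run could not test the clone term or the replicate block. Alternatives were RLE scaling, library totals, TMM without members and rows under 300 bases, no filter, a stricter filter (mean of 50 counts), DESeq2 1.42.0, limma-voom (limma 3.58.1), other designs and leaving out each library. Figures were drawn with matplotlib 3.10.9.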

Additional observations from a re-analysis of the deposited data

Results flagged for a closer look

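For 9 host values the clones moved in opposite directions, which drew attention to them; in no case was the difference between clones tested, each RAD21 clone has 1 pair, and groups of 2 or 3 libraries were too small to look for outlying samples. Differences are in log2(CPM + 0.5) of dTAG-13 less DMSO. In PRO-seq Snhg11 changed by -0.14 in C4 and 0.05 in G9, a difference of -0.20, and Snhg5 by 0.10 and -0.07, a difference of 0.17. In RAD21 RNA Snhg10 changed by -0.36 in C4 and 0.44 in G9, a difference of -0.80, and Snhg9 by -0.38 and 0.15, a difference of -0.52, both rows of about 2 CPM. Snhg1, the host of Snord22, changed by -0.15 in C4 and 0.06 in G9, a difference of -0.21. Snhg8 changed by 0.02 and -0.18, a difference of 0.20, Snhg18 by 0.03 and -0.09, a difference of 0.12, and Snhg6 by -0.11 and 0.002, a difference of -0.11. On WAPL days 4 to 7 Snhg10 changed by 0.56 and 0.04 in the pairs of clone H7 and by -0.86 in H2, a difference of 1.16.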

How the results depend on the processing

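Members called higher in PRO-seq numbered 2, and 1 with DESeq2 (Snhg15 lost, adjusted p = 0.187), 0 without the clone term and 0 without any 1 library. Members called lower in RAD21 RNA numbered 9, and 0 with DESeq2, 5 with limma-voom, 0 without the clone term and 0 without any 1 library; leaving out a library of these sets also removed the clone term, so that the lone library was assumed to vary like the others. On WAPL days 4 to 7 the count was 3, and 1 without the clone term, 9 with the replicate block and 0 to 9 without 1 library, 9 without the treated library of H7 replicate 1 and 0 without either library of H2 or the control of H7 replicate 2. On WAPL days 7 to 10 the count was 0, and 14 with the replicate block (4 entries and 10 hosts). There are only 2 pairs there (r = 0.828). They rest on the number in the titles alone, as the H7 pairs of days 4 to 7 do, and the pairing was not crossed. Counts of members kept within 1.5 times under RLE scaling, library totals, TMM without members and short rows, no low-count filter, or a stricter one at 50 counts, and no called member changed sign under any alternative run. A count limit of 50 in place of 10 would leave 23, 24 and 23 members in the RNA tables, and one of 5 gives 78 in the RAD21 table. With the entries' own counts taken off the host, the median change per host count summed over the RAD21 libraries was -0.29 in place of -0.24. Over all rows the calls were 1743 in PRO-seq, against 514 with DESeq2 and 0 without the clone term or any 1 library; 2708 in RAD21 RNA, against 472 with DESeq2, 1 without the clone term and 16 to 94 without 1 library; 2209 on WAPL days 4 to 7, against 994 without the clone term, 3993 with the replicate block and 341 to 4433 without 1 library; and 0 on days 7 to 10, against 44 with DESeq2, 5141 with the replicate block and 27 to 143 without 1 library. Depth limits the entries, whose mean counts had medians of 18.75 to 22.75.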
